A study of Mus musculus with 8 samples.

Results

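Interferon-stimulated genes are switched on when a cell senses interferon. Type I interferon binds the receptor chains Ifnar1 and Ifnar2, the kinases Jak1 and Tyk2 are activated, and a complex that contains Stat2 and Irf9 binds an interferon-stimulated response element near its target genes. Interferon gamma signals through Ifngr1 and Ifngr2 and acts on genes that carry a gamma-activated sequence. The products sense foreign RNA, degrade it, block viral replication or damage the compartments in which microbes live, and T cells express part of the set without infection. The set described here holds 39 such genes, taken by symbol from a list of type I interferon-stimulated genes. All 39 were among the 24453 genes of the deposited table and all 39 passed the filter on low values, which left 15547 genes tested.

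RNA was measured by bulk sequencing in 8 libraries of mouse T cells sorted as CD4-positive and Foxp3-positive, with no treatment. T143 (3 libraries) and T138 (2 libraries) are lines made by somatic cell nuclear transfer, in which the nucleus of 1 T cell founds a mouse, so each line stands for a single founder nucleus. The series text describes T143 as a model of agonist-induced regulatory T cells and T138 as a model of naturally occurring ones, and the third group is wild type (WT, 3 libraries). All 8 libraries, WT included, carry the strain label NOD-Foxp3GFP-Rag1-/-, that is, the NOD background, a green fluorescent Foxp3 reporter and loss of Rag1, which is needed to rearrange antigen receptor genes. No label says whether WT mice truly lack Rag1, so in comparisons with WT the loss of Rag1 and the line cannot be told apart if they do not. In 2 libraries the labels conflict: the source name gives a T138 mouse for T143 replicate 1 and a T143 mouse for WT replicate 1, and group membership follows title, model and description instead. Ages are not given, and the labels do not tie replicates to animals, so each p-value reflects library-to-library spread, part of which may be technical. The question that the series text names is whether the lines are distinct kinds of regulatory T cell.

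The libraries held 7.83, 12.25 and 12.6 M reads in T143, 15.84 and 18.41 M in T138, against 22.64, 14.64 and 20.51 M in WT. Values are given below as normalised reads, that is, gene read counts that the authors scaled so that each library sums to 15.59 M. A count of 3 reads corresponds to between 2.07 and 5.97 normalised reads. The sorted populations carried T cell transcripts, but markers of other cell types differed between the groups. Foxp3, the factor that defines the sorted cells, stood at 3920.5, 6299 and 8694 in T143, 41854 and 41161 in T138, against 29773, 36362 and 35359.6 in WT. The summed value of 10 neutrophil markers ran from 88264 to 533459 in T143, from 4093 to 22209 in T138, against from 63.4 to 819 in WT. Of these 10, 7 were at 0 in WT replicate 1, 3 in WT replicate 2 and 4 in WT replicate 3. The sum of 10 macrophage and monocyte markers ran from 9734 to 36466 in T143, from 2948 to 4670 in T138, against from 439.8 to 596.5 in WT. Fcgr1, a defining marker of that list, was at 0 in all 3 WT libraries. Most of the T143 sums came from 1 gene, Lyz2, with 7897, 17916 and 25398 of 9734, 28662 and 36466. Lyz2 rose across the T143 libraries in the same order as the neutrophil sum. The sum of 10 markers of conventional dendritic cells ran from 5640 to 24046 in T143, from 64193 to 84872 in T138, against from 1128 to 1440 in WT. The T cell list summed to 51778 to 75036 in T143, 111275 to 111283 in T138, against 110393 to 124479 in WT, and the genes of it called lower in T143 than in WT were Foxp3, Il2ra and Ctla4. The other 6 T cell markers, split off after their values were seen, summed to 69587, 51235 and 38799 in T143, 50577 and 51425 in T138, against 59154, 57164 and 68017 in WT. The erythroid list ran from 3584 to 18849 in T143, from 1424 to 2479 in T138, against 441.6 to 1211 in WT, with 7 of 8 markers called higher in T143 than in WT, and the NK cell list from 1825 to 2519 in T143, from 686 to 867 in T138, against 461.1 to 830.0 in WT, with 5 of 8 called higher. Markers of plasmacytoid dendritic cells ran from 2478 to 3943 in T143, from 4605 to 7306 in T138, against 2420 to 2544 in WT. Of these 10, 2 were called higher than in WT in T143 and 4 in T138. Called in both, Siglech had 47.8, 214 and 103 in T143, 1010 and 320 in T138, against 0.69, 23.4 and 9.12 in WT. The sum of B cell markers ran from 39.8 to 95.3 in T143, from 71.1 to 197.8 in T138, against 149.1 to 588.9 in WT. Many of the genes below are also expressed by those other cells. In bulk samples, fewer cells of a type and less RNA per cell cannot be told apart.

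Promoter windows from RefSeq (build GRCm38.p6, the reference strain; the alleles of these mice were not read) were searched for both elements. A window runs from 250 bases before to 50 bases after the start of a gene, and 30 of the 39 members have one. The core of the interferon-stimulated response element was searched as GAAA, any 2 bases, then GAAA, and the gamma-activated sequence as TTCNNNGAA, on both strands, and matches of the 2 may overlap. The response element core was in 16 of the 30 windows (53.3%), against 3.99% of the windows of all 27025 genes that have one. TTCNNNGAA was in 7 of 30 (23.3%), against 9.55%. The sequences below are the last bases before the start of 6 members, printed 5′ to 3′ on the strand of the gene with matches in capitals, and are shown because these genes either carry the element in different arrangements or carry none. Oas3 (chr5:120777685-120777779, minus strand) has 1 response element core. Isg15 (chr4:156200819-156200938, minus strand) has 3 that overlap. Gbp3 (chr3:142559924-142560015, plus strand) has 2 that overlap, read on the opposite strand. Igtp (chr11:58199436-58199555, plus strand) has 1 of each motif. Oasl2 (chr5:114896814-114896925, plus strand) and Slfn1 (chr11:83116700-83116819, plus strand) have neither, here or in the whole window.
Oas3: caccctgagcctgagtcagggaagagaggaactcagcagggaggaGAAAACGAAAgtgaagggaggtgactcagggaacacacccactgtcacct
Isg15: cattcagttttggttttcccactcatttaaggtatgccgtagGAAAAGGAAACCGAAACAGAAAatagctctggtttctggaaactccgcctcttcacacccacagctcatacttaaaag
Gbp3: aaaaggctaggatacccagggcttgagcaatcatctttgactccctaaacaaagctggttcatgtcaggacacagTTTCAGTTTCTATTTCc
Igtp: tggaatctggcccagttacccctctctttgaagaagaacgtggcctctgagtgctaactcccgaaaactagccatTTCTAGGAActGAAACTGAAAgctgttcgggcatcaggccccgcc
Oasl2: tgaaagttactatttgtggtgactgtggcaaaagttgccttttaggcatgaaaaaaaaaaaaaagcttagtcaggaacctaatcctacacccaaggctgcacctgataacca
Slfn1: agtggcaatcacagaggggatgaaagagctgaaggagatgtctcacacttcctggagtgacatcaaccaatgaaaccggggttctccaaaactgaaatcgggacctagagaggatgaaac

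The set did not move as a block. The synthetases Oas2 and Oas3, their relatives Oasl1 and Oasl2, the pair Rsad2 and Cmpk2, and the Schlafen genes Slfn1 and Slfn2 stood higher in T143 cells than in WT, while Stat2, Slfn8 and Gbp3 were lower. In T143 against WT, 11 of 39 members passed the test (8 higher, 3 lower; 28.2%), beside 23.8% of all 15547 genes tested (11.7% higher, 12.1% lower). In T143 against T138 it was 8 of 39 (5 higher, 3 lower; 20.5%), beside 21.0% of all genes (10.8% higher, 10.2% lower). In T138 against WT it was 3 of 39, all higher (7.69%), beside 11.0% (5.74% higher, 5.3% lower). The median log2 change of the members was 0.37 for T143 against WT, 0.11 for T143 against T138 and 0.16 for T138 against WT, where that of all genes tested was 0.05, 0.15 and -0.06. Single libraries moved these medians. For T143 against WT it was 0.136 without T143 replicate 2 and 0.187 without WT replicate 2. For T143 against T138 it was 0.041 without T143 replicate 1, -0.127 without T143 replicate 2 and 0.348 without T143 replicate 3. For T138 against WT, leaving out T138 replicate 1 gave 0.044, T138 replicate 2 gave 0.328, WT replicate 1 gave 0.267 and WT replicate 2 gave 0.081. The shares of members called either way are near those of all genes. By direction, member calls leaned to higher in T143 against WT (8 to 3), T143 against T138 (5 to 3) and T138 against WT (3 to 0). Those of all genes were nearly even in each. Members whose libraries did not overlap between groups numbered 8 higher and 4 lower in T143 against WT (20.0% and 20.7% of all genes), 7 higher and 6 lower in T143 against T138 (28.0% and 23.7%), and 11 higher and 5 lower in T138 against WT (17.7% and 19.8%).

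**Figure D1:**
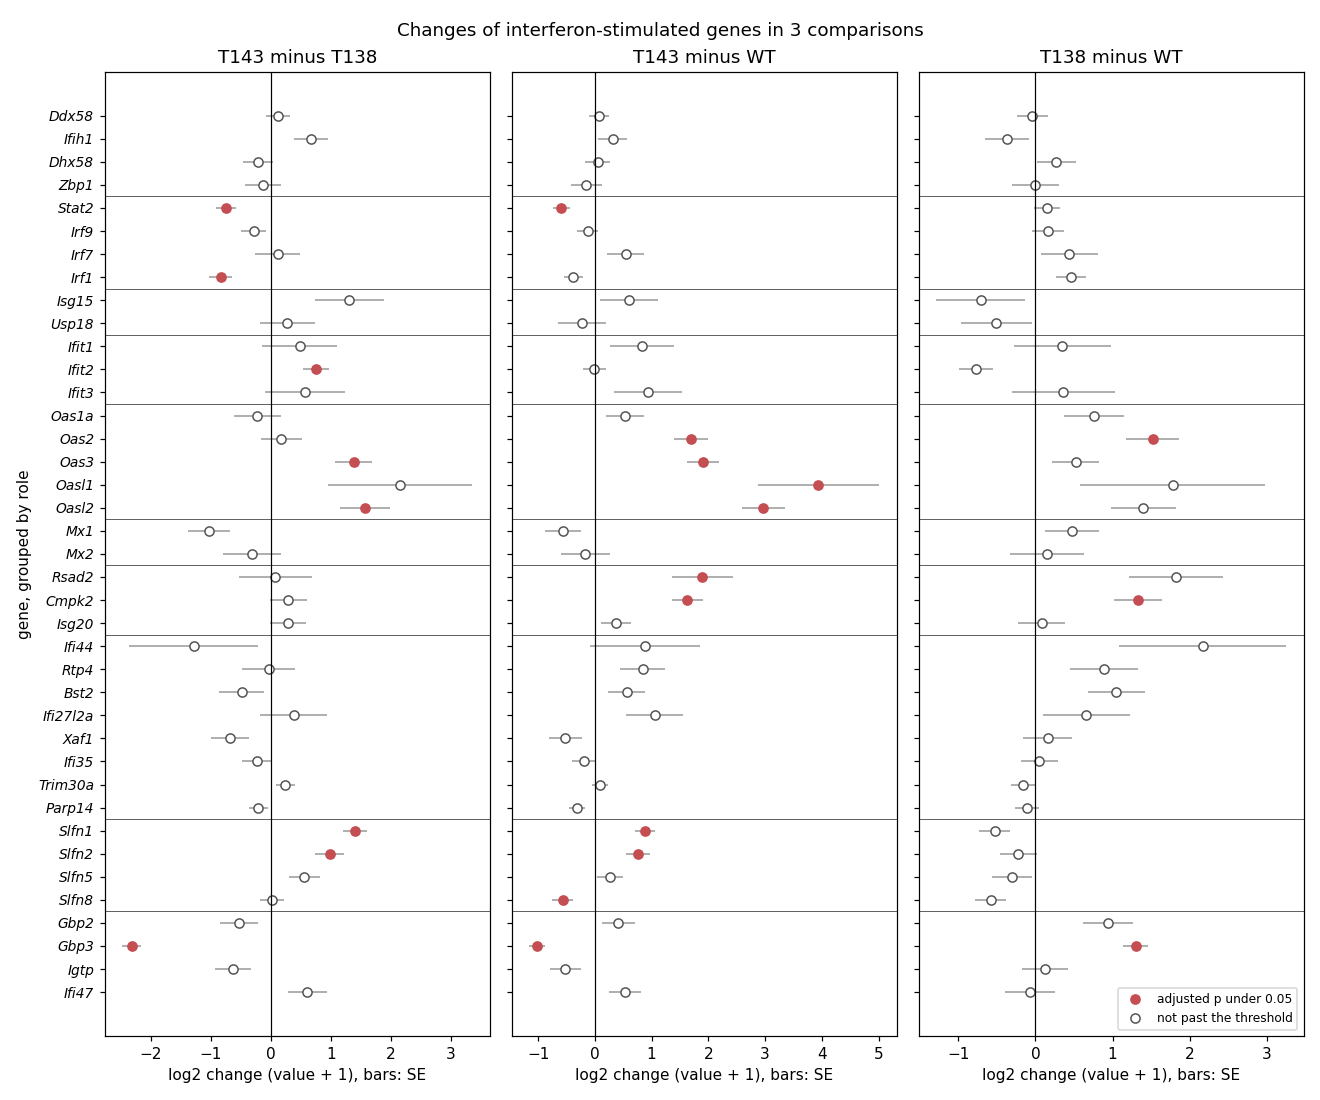
Log2 change of each of the 39 members (horizontal axis, on the log2(value + 1) scale) in T143 against T138, T143 against WT and T138 against WT, with bars of 1 SE and genes grouped by role down the page. Filled points passed the test, 8, 11 and 3 genes in the 3 panels, and they lie on both sides of 0 in the first 2 panels.

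The comparisons share libraries: T143 enters 2 of them, as do T138 and WT. Quantile normalization moved the median of all genes in T143 against T138 to 0.014, against 0.152 as deposited, and in T143 against WT to -0.078, against 0.053. Changes are to be read against those medians. After median centring the called members in T143 against T138 were 4 higher and 4 lower. No called member reversed its direction under any of 20 alternatives.

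Members also differed in level. Per kilobase of transcript, the highest mean was that of Ifi27l2a, which encodes a small interferon-inducible protein, at 8021 in T143, 5907 in T138 and 4516 in WT. Slfn2 followed in T143 at 4817 and Irf1 at 4699 in T138, while the lowest levels were those of Oasl1 and Ifi44. Ifi44 had 8.12 per kilobase in T143, 14.4 in T138 and 3.42 in WT. Levels of the scarcest members rest on few reads.

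**Figure D2:**
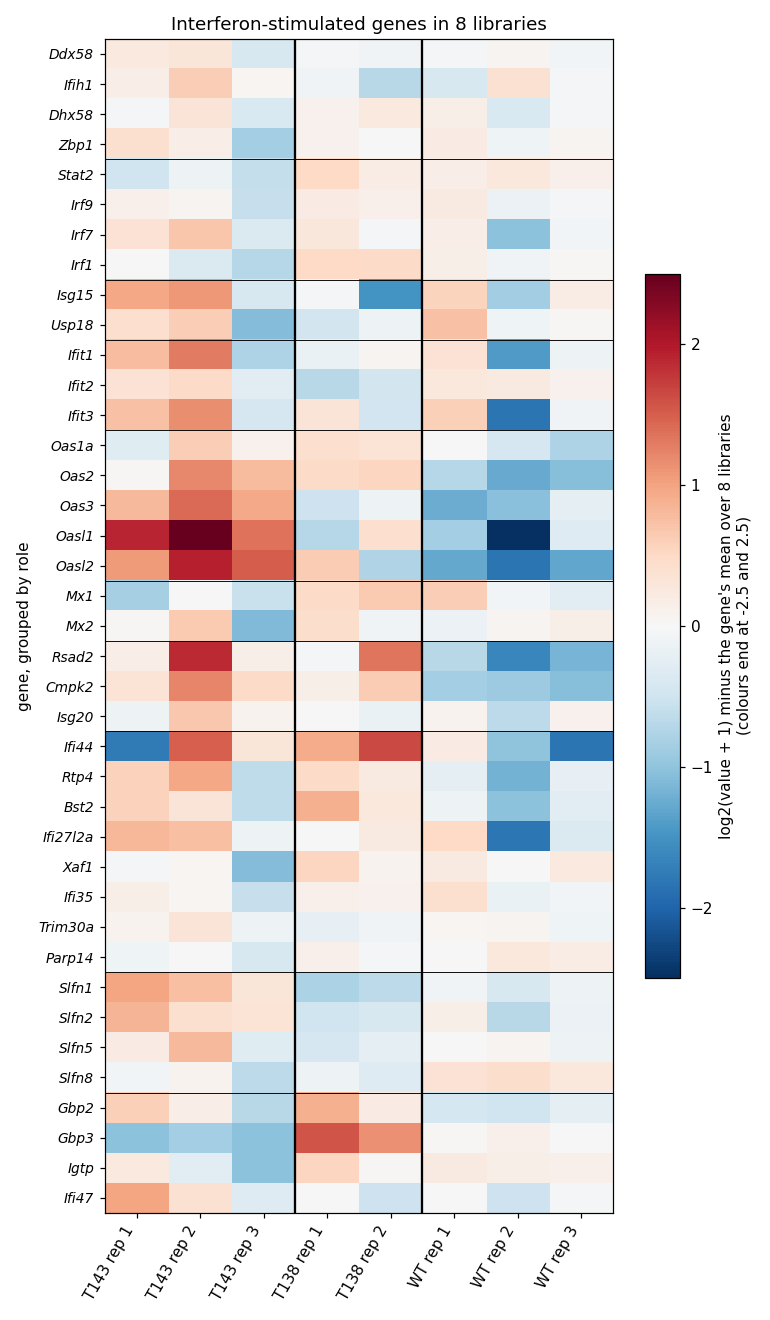
Values of the 39 members in 8 libraries, as log2(normalised reads + 1) minus the mean of that gene over all libraries (colour), with libraries across and genes grouped by role down the page. T143 replicate 2 is the highest of 8 libraries for 20 members and T143 replicate 3 the lowest for 15.

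The oligoadenylate synthetase (OAS) family held the most called members. Oas2 and Oas3 make the oligoadenylates that activate the nuclease RNase L, and Oasl1 and Oasl2 are related proteins that end in ubiquitin-like domains. All lie on chromosome 5. In T143 against WT 4 of the 5 were higher (Oas2, Oas3, Oasl1 and Oasl2), in T143 against T138 it was 2 of 5 (Oas3 and Oasl2), and in T138 against WT 1 of 5 (Oas2), with none of the 5 lower. Of all genes tested, 11.7, 10.8 and 5.74% were called higher in these comparisons. Outside the set, Oas1b and Oas1c were called lower in T143 than in both other groups. Oas1g, with at most 17.3 normalised reads, was called higher in T143 than in WT.

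Oasl2 (chromosome 5, 114896926 to 114912245) had 557, 1024 and 756 normalised reads in T143, 411 and 157 in T138, against 108, 74.5 and 108 in WT. The groups did not overlap, and the T138 libraries lay far apart. Its log2 change was 2.97 ± 0.38 (SE) in T143 against WT (adjusted p = 0.000527, limma with Benjamini-Hochberg adjustment), 1.57 ± 0.42 in T143 against T138 (adjusted p = 0.024), and 1.4 ± 0.42 in T138 against WT (adjusted p = 0.0581). The difference from T138 missed the threshold without T138 replicate 2 (0.88, adjusted p = 0.206), without T143 replicate 2 (1.35, adjusted p = 0.0975) and without T143 replicate 3 (1.57, adjusted p = 0.0552), and with only the 2 groups fitted (adjusted p = 0.0517). Its promoter, printed above, holds no match to either motif. Oas3 (chromosome 5, 120753098 to 120777684) had 848, 1292 and 934 in T143, 338 and 442 in T138, against 203, 234 and 407 in WT. Every T143 library was above every other library, and T138 overlapped WT. The log2 change was 1.9 ± 0.28 in T143 against WT (adjusted p = 0.00121), 1.38 ± 0.31 in T143 against T138 (adjusted p = 0.012) and 0.52 ± 0.31 in T138 against WT (adjusted p = 0.343). Without T138 replicate 1 the difference from T138 was 1.19 (adjusted p = 0.0853), and without T143 replicate 2 it was 1.2 (adjusted p = 0.0516).

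Oas2 (chromosome 5, 120730333 to 120749886), the neighbour of Oas3, behaved differently from it in T138. It had 358, 813 and 615 in T143, 494 and 509.7 in T138, against 216, 146 and 168 in WT. Both lines were above WT with no overlap, and the T138 libraries lay inside the T143 range. The log2 change was 1.69 ± 0.3 in T143 against WT (adjusted p = 0.00296), 0.17 ± 0.34 in T143 against T138 (adjusted p = 0.751) and 1.52 ± 0.34 in T138 against WT (adjusted p = 0.0166). The T138 call was lost without T138 replicate 1 (adjusted p = 0.0818), T138 replicate 2 (adjusted p = 0.1) or WT replicate 3 (adjusted p = 0.0558). Oasl1 (chromosome 5, 114923143 to 114937911), which in mice restrains translation of Irf7, was the scarcest of the family. It had 89.5, 165 and 60.6 in T143, 13.8 and 31.3 in T138, against 12.4, 0 and 18.2 in WT. All T143 libraries were above the rest, and with 1 WT library at 0 its fitted change of 3.94 ± 1.07 against WT (adjusted p = 0.0227) is imprecise; without T143 replicate 1 the adjusted p was 0.0572 and without T143 replicate 2 it was 0.0976. Oas1a, a synthetase of the same type as Oas2 with tandem near-copies beside it, ran from 127 to 242 in T143, from 199 to 209.6 in T138, against from 92 to 158 in WT, and passed no test.

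The nucleotide genes Rsad2 and Cmpk2 are neighbours on chromosome 12. Rsad2 encodes viperin, which makes a nucleotide that halts viral RNA synthesis, and Cmpk2 is a nucleotide kinase of mitochondria. Cmpk2 (chromosome 12, 26469117 to 26479837) had 390.1, 724 and 431 in T143, 339.6 and 481 in T138, against 171, 164 and 146 in WT. Both lines stood above all WT libraries and overlapped each other. Its log2 change was 1.63 ± 0.28 in T143 against WT (adjusted p = 0.00238), 0.29 ± 0.31 in T143 against T138 (adjusted p = 0.533) and 1.33 ± 0.31 in T138 against WT (adjusted p = 0.0212). The T138 call was lost without T138 replicate 2 (adjusted p = 0.158) or WT replicate 3 (adjusted p = 0.0686). Rsad2 (chromosome 12, 26442743 to 26456452) ran from 152 to 509 in T143, from 136 to 351 in T138, against from 43.7 to 84.7 in WT, again without overlap between either line and WT. It was higher in T143 than in WT (adjusted p = 0.0286), a call lost without T143 replicate 2 (adjusted p = 0.124), WT replicate 2 (adjusted p = 0.091) or WT replicate 3 (adjusted p = 0.0788), after quantile normalization (adjusted p = 0.0656) and with limma-voom (adjusted p = 0.0634). It missed the threshold in T138 (adjusted p = 0.0839). Isg20, an exonuclease that degrades RNA, ran from 469.7 to 816 in T143, from 459.8 to 514 in T138, against from 327 to 549 in WT, and passed no test.

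**Figure D3:**
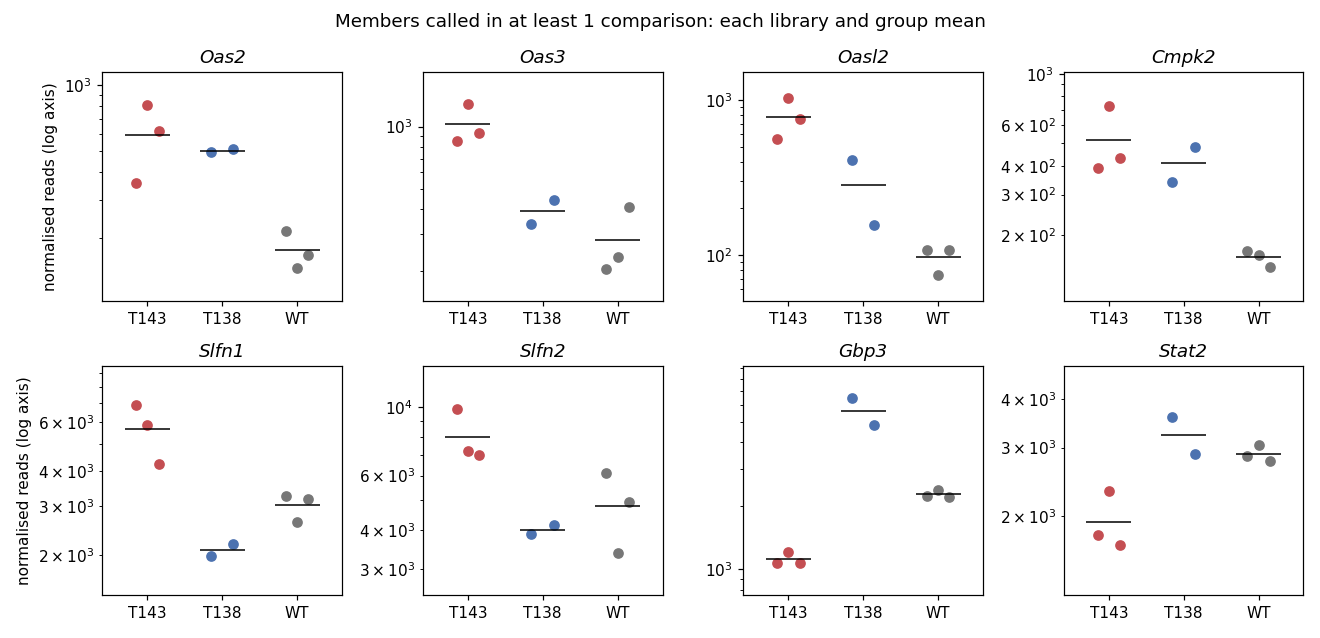
Normalised reads (log axis) of Oas2, Oas3, Oasl2, Cmpk2, Slfn1, Slfn2, Gbp3 and Stat2, with 1 point per library in T143, T138 and WT and a bar at the group mean. Oas3 and Slfn1 lie highest in all T143 libraries, Oas2 and Cmpk2 lie above WT in both lines, and Gbp3 has the T138 libraries at 6467 and 4817 above all others.

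The Schlafen genes form a cluster on chromosome 11. The short members Slfn1 and Slfn2 are known in mice for holding back T cell growth, Slfn2 being needed for T cell quiescence, and Slfn5 and Slfn8 are longer members. In T143 the short pair was higher than in either other group. Slfn1 (chromosome 11, 83116820 to 83122670) had 6869.8, 5823 and 4245 in T143, 1982 and 2194 in T138, against 3266, 2629 and 3173 in WT. The 3 groups did not overlap, with T143 highest and T138 lowest. Its log2 change was 1.41 ± 0.2 in T143 against T138 (adjusted p = 0.00126), 0.88 ± 0.18 in T143 against WT (adjusted p = 0.00577) and -0.53 ± 0.2 in T138 against WT (adjusted p = 0.128), and both T143 calls held under all 20 alternatives. Its promoter, printed above, has no match to either motif.

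Slfn2 had 9847, 7227 and 6973 in T143, 3897 and 4151 in T138, against 6104, 3389 and 4924 in WT. T143 was again above all other libraries, while T138 lay within the WT range. The log2 change was 0.98 ± 0.24 in T143 against T138 (adjusted p = 0.0158) and 0.76 ± 0.21 in T143 against WT (adjusted p = 0.0249). Against T138 the call was lost without T138 replicate 1 (adjusted p = 0.092) or T138 replicate 2 (adjusted p = 0.0859), and against WT without T143 replicate 1 (adjusted p = 0.0858), WT replicate 2 (adjusted p = 0.0689) or WT replicate 3 (adjusted p = 0.0629) and after median centring (adjusted p = 0.0709). Slfn8, which has a close copy in Slfn9, ran from 1656 to 2764 in T143, from 2089.6 to 2389 in T138, against from 3146 to 3551 in WT. Both lines lay below WT without overlap, yet only T143 passed (-0.57 ± 0.18, adjusted p = 0.0441), and that call was lost under 14 of 20 alternatives, with adjusted p up to 0.126, among them the omission of any library but T143 replicate 2. Slfn5 ran from 2861 to 6239.6 in T143, from 2663 to 2988 in T138, against from 3225 to 3687 in WT, and passed no test.

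Among the transcription factors, Stat2 and Irf1 were lower in T143. Stat2 (chromosome 10, 128270498 to 128292853), the partner of Irf9, had 1795, 2321 and 1693 in T143, 3592 and 2884 in T138, against 2853, 3053 and 2779 in WT. Every T143 library was below every other library. The log2 change was -0.75 ± 0.17 in T143 against T138 (adjusted p = 0.0124) and -0.59 ± 0.15 in T143 against WT (adjusted p = 0.0182). The first was lost without T138 replicate 1 (adjusted p = 0.105), and the second without T143 replicate 1 (adjusted p = 0.0545), T143 replicate 3 (adjusted p = 0.0574) or WT replicate 2 (adjusted p = 0.0528). Irf1 (chromosome 11, 53770014 to 53778374), an activator downstream of interferon gamma, had 7254, 5549 and 4396 in T143, 10121 and 9960.5 in T138, against 7913, 6758 and 7344 in WT. T138 stood above the rest, and T143 overlapped WT. Irf1 was lower in T143 than in T138 (-0.84 ± 0.19, adjusted p = 0.0126), a call lost without T138 replicate 1 (adjusted p = 0.0742) or T138 replicate 2 (adjusted p = 0.0834), and missed the threshold against WT (-0.38 ± 0.17, adjusted p = 0.137). Irf9 and Irf7, the amplifier of type I interferon, passed no test. Irf9 ran from 2114 to 3441 in T143, from 3442 to 3620.0 in T138, against from 2839 to 3668 in WT, and Irf7 from 1110.2 to 2317 in T143, from 1391 to 1747 in T138, against from 699.7 to 1601 in WT.

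The inducible GTPases gave the member that differed most between the lines. Gbp3 (chromosome 3, 142560016 to 142573213) is a guanylate-binding protein, one of a family that attacks the vacuoles of intracellular microbes. It had 1075, 1204 and 1071 in T143, 6467 and 4817 in T138, against 2228, 2374 and 2206 in WT. T143 was lowest, WT in the middle and T138 highest, with no overlap. The log2 change was -2.32 ± 0.16 in T143 against T138 (adjusted p = 2.41e-05), -1.02 ± 0.14 in T143 against WT (adjusted p = 0.000821) and 1.3 ± 0.16 in T138 against WT (adjusted p = 0.000842). It was the only member called in all 3 comparisons, and it was called under all 20 alternatives in each. Its promoter, printed above, holds the response element core as a pair of matches that overlap. The sum of conventional dendritic cell markers was also highest in T138 but lowest in WT, and its part in the result was not tested. The other members of this role passed no test. Gbp2 ran from 1714 to 4163 in T143, from 3197 to 5115 in T138, against from 1963 to 2323 in WT, so T138 was above WT without overlap (0.94 ± 0.32, adjusted p = 0.0939). Igtp and Ifi47, GTPases of the immunity-related family, ran from 2668 to 6436 and from 3137 to 7704 in T143, from 5564 to 7936 and from 2729 to 3916 in T138, against from 5952 to 6419 and from 2729.6 to 3876 in WT.

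Of the IFIT family, whose proteins bind viral RNA, Ifit2 alone was called. Ifit2 had 1391, 1517 and 885 in T143, 674 and 789 in T138, against 1300.4, 1259 and 1170.4 in WT. T138 lay below both other groups, which overlapped. The log2 change was 0.75 ± 0.22 in T143 against T138 (adjusted p = 0.0365) and -0.77 ± 0.22 in T138 against WT (adjusted p = 0.0523). The T143 call was lost under 8 of 20 alternatives, without T138 replicate 1 (adjusted p = 0.176), T138 replicate 2 (adjusted p = 0.1), T143 replicate 1 (adjusted p = 0.0962), T143 replicate 2 (adjusted p = 0.127) or WT replicate 3 (adjusted p = 0.0608) and after median centring (adjusted p = 0.0912) among them. Ifit1 ran from 269 to 1135 in T143, from 410.4 to 486 in T138, against from 171 to 589.6 in WT, and Ifit3, which has a close copy in Ifit3b, from 151 to 456 in T143, from 146 to 255 in T138, against from 56.4 to 308 in WT. Neither passed a test.

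No member passed the test in any comparison among the RNA sensors, the ISG15 system, the MX family and the 8 other effectors, 16 genes in all, by limma with adjusted p. Some alternatives did call a few of these genes. In T143 against T138, Mx1 was called after median centring, quantile normalization, with DESeq2 and without WT replicate 1. Isg15 was called there without T143 replicate 3. In T143 against WT it was Rtp4 with DESeq2 or without T143 replicate 3, and Ifi27l2a without WT replicate 1. In T138 against WT it was Bst2 with DESeq2 or without T143 replicate 3. At an unadjusted p under 0.05 the full set of 39 members gave 13 in T143 against WT (33.3%, beside 35.9% of all genes tested). It gave 11 in T143 against T138 (28.2%, beside 35.5%) and 11 in T138 against WT (28.2%, beside 24.3%). Ddx58 (RIG-I) and Ifih1 (MDA5) sense viral RNA in the cytosol, Dhx58 (LGP2) regulates them and Zbp1 senses nucleic acids in the Z form. Their log2 changes ranged from -0.15 to 0.31 in T143 against WT, from -0.22 to 0.67 in T143 against T138 and from -0.37 to 0.27 in T138 against WT. Isg15, a ubiquitin-like protein that is attached to others, had 593, 646 and 230.2 in T143, 298 and 108 in T138, against 448, 165 and 345 in WT. The groups overlapped, and the difference between T143 and T138 was 1.31 ± 0.58 (adjusted p = 0.131). Usp18, which removes Isg15 and damps the type I receptor, ran from 167 to 546 in T143, from 259 to 328 in T138, against from 329 to 592 in WT. Mx1 and Mx2, dynamin-like GTPases against viruses, ran from 133 to 234 and from 74.3 to 252 in T143, from 331 to 373 and from 152 to 218 in T138, against from 195 to 364 and from 146 to 179 in WT. Mx1 was below T138 in all T143 libraries (-1.03 ± 0.35, adjusted p = 0.0607). The other effectors are Bst2, which tethers budding virus, Xaf1, which binds an inhibitor of cell death, Trim30a, Parp14, Rtp4, Ifi35, Ifi27l2a and Ifi44. Their log2 changes ranged from -0.52 to 1.05 in T143 against WT, from -1.29 to 0.38 in T143 against T138 and from -0.16 to 2.17 in T138 against WT. Ifi44, which sets the outer bounds in 2 of these ranges, had at most 52.5 normalised reads in any library. Bst2, which is also a marker of plasmacytoid dendritic cells, was above WT in both T138 libraries (1.05 ± 0.37, adjusted p = 0.106).

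Libraries of 1 group differed among themselves for many members at once. T143 replicate 3 was the lowest of its group for 31 of 39 members (36.0% of all genes) and the highest for 0 (34.6% of all genes). T143 replicate 2 was the highest of its group for 28 (33.2% of all genes). In WT, replicate 2 was the lowest for 23 members (35.2% of all genes), and the order replicate 1, 3, 2 held for 18 of 39 (20.9% of all genes). The SD of log2 values within T143 had a median of 0.48 over the members and 0.29 over all genes, in T138 0.19 and 0.19, and in WT 0.29 and 0.32. Ifit1, Ifit3 and Ifi27l2a were each lowest in replicate 3 among T143 libraries and lowest in replicate 2 among WT libraries. Ifi27l2a had 4537, 4294 and 2309 in T143, 2524 and 2946 in T138, against 3566, 719.9 and 1986 in WT. The members took 0.563, 0.543 and 0.351% of all signal in T143, 0.513 and 0.454% in T138, against 0.475, 0.396 and 0.433% in WT. T143 replicate 3, lowest in that share, had the largest neutrophil sum (533459) and the smallest sum of the 6 other T cell markers (38799) of all libraries. T143 replicate 2, the highest of all 8 libraries for 20 members, had the largest erythroid sum (18849) and, within T143, the largest conventional dendritic cell sum (24046). Their part in the result was not tested.

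**Figure D4:**
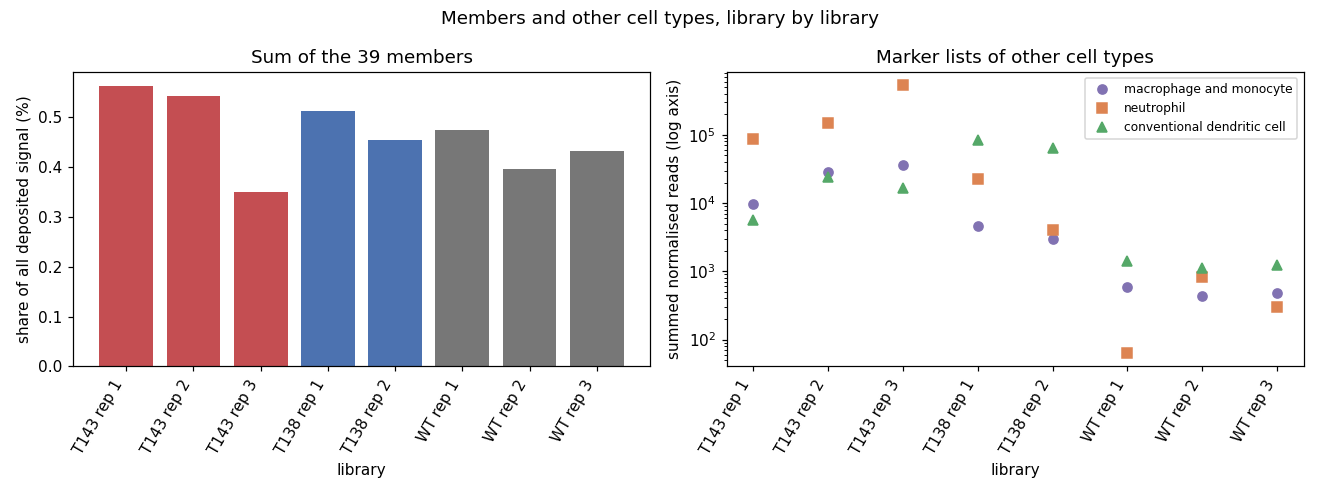
Left, the share of all deposited signal taken by the 39 members in each library (bars, %); right, summed normalised reads of 3 marker lists of other cell types (log axis), libraries in the order T143, T138, WT. The member share is lowest in T143 replicate 3 (0.351%), the library with the highest neutrophil sum, 533459.

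Without T143 replicate 3 and T138 replicate 1, which held the most neutrophil transcripts of their groups, T138 keeps 1 library. The median log2 change of the members was then 0.528 in T143 against WT and 0.325 in T143 against T138. That of all genes tested was 0.056 and 0.143. Without the 2 libraries with conflicting source names (T143 replicate 1, WT replicate 1), 7 members were called in T143 against WT. There were 6 in T143 against T138 and 2 in T138 against WT. All genes called were 2818 in the first, 2765 in the second and 1386 in the third, against 3698, 3272 and 1716 with every library. Leaving out WT replicate 2 left 7 called members and 2749 called genes in T143 against WT. In T143 against T138, leaving out T143 replicate 2 left 5 called members and 2004 called genes. Leaving out T138 replicate 1 or 2 leaves 1 library in that line. The median change of T143 against T138 was then 0.103 or 0.074 for the members and 0.177 or 0.127 for all genes tested. In T138 against WT, leaving out WT replicate 3 left 1 called member and 1096 called genes. Leaving out T143 replicate 3 gave 7 members and 1776 genes. The OAS genes, Rsad2, Cmpk2 and the GTPases are also expressed by myeloid cells. In T143 against WT all 10 macrophage and monocyte markers and 9 of 10 neutrophil markers were called higher, and in T138 against WT 4 and 7 of 10 were, and their part in the result was not tested.

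The rest of the pathway was read from 105 other genes in 8 lists, of which 93 were tested. In T143 against T138 6 were higher and 28 lower (36.6%), beside 10.8% higher and 10.2% lower of all genes tested. In T143 against WT 10 were higher and 25 lower (37.6%), beside 11.7% and 12.1%. In T138 against WT 9 were higher and 1 lower (10.8%), beside 11.0% of all genes called either way. The ligands were scarce. Ifnb1, Ifna1, Ifna2, Ifna5, Ifna13, Ifne, Ifnk, Ifnl2 and Ifnl3 were at 0 in all 8 libraries, and Ifna4 had 4.13 in WT replicate 1 alone. A count of 0 allows up to 5.97 normalised reads in the shallowest library. Ifng, the ligand that T cells make, had 109, 44.5 and 70.5 in T143, 13.8 and 42.3 in T138, against 147, 34.1 and 93.5 in WT, and passed no test.

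The receptors split. Ifnar1 had 3859, 4131 and 3419.6 in T143, 6246 and 6934 in T138, against 5613, 6126 and 5574 in WT, and was lower in T143 than in T138 (-0.8 ± 0.14, adjusted p = 0.00334) and than in WT (-0.6 ± 0.12, adjusted p = 0.00628). Ifnar2 had 1389, 1534 and 1673 in T143, 1530.5 and 1372 in T138, against 1921, 2214 and 2293 in WT, and was lower than in WT in T143 (-0.48 ± 0.14, adjusted p = 0.0267) and in T138 (-0.56 ± 0.15, adjusted p = 0.0401). The ligand-binding chain Ifngr1 went the other way in T138. It had 3588, 3565 and 5756 in T143, 12924 and 14173 in T138, against 2973, 2621 and 3369.8 in WT. The T138 libraries stood far above all others, at 2.19 ± 0.21 against WT (adjusted p = 0.000277), and T143 was -1.69 ± 0.21 against T138 (adjusted p = 0.000671). Its partner Ifngr2 had 1256, 1189.9 and 1323 in T143, 701 and 1011 in T138, against 913, 602 and 767 in WT, with T143 higher than WT (0.74 ± 0.19, adjusted p = 0.0193). Ifnlr1, the receptor of interferon lambda, had 67.7, 153 and 386 in T143, 33.5 and 0 in T138, against 0, 0 and 8.36 in WT, and was called higher in T143 than in WT (adjusted p = 0.00948). It was highest in T143 replicate 3, as the neutrophil sum was, and the part of neutrophils in this call was not tested.

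**Figure D5:**
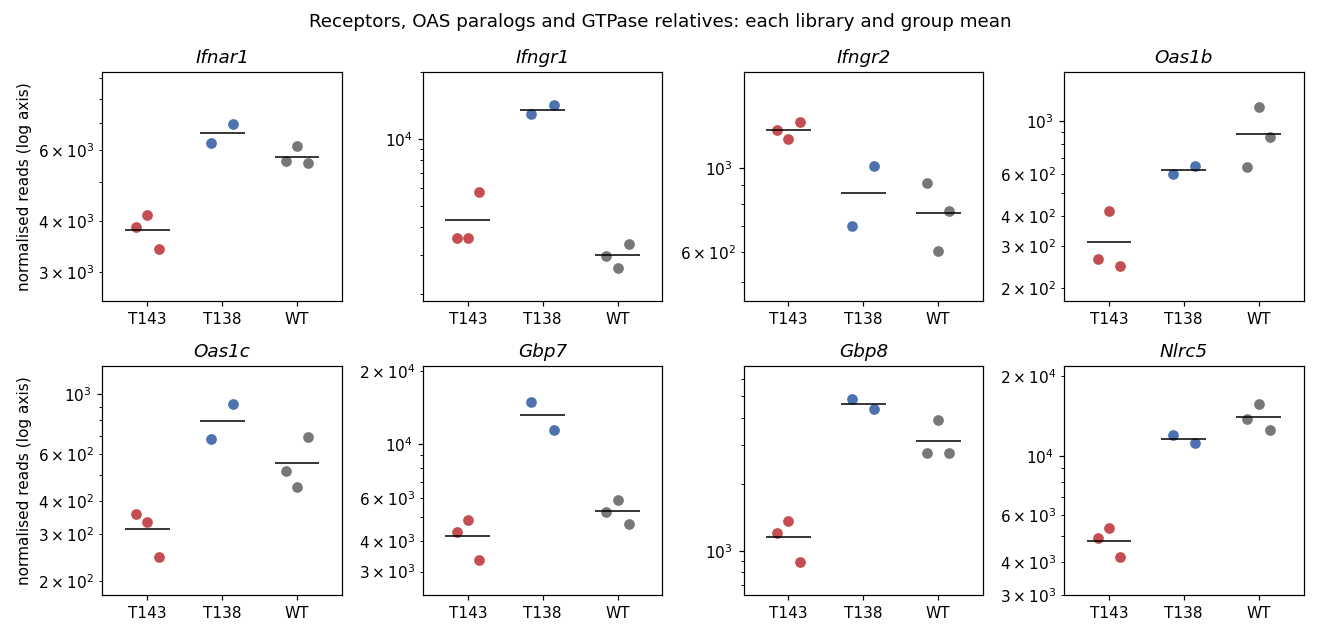
Normalised reads (log axis) of the receptor genes Ifnar1, Ifngr1 and Ifngr2 and of Oas1b, Oas1c, Gbp7, Gbp8 and Nlrc5, with 1 point per library in T143, T138 and WT and a bar at the group mean. Ifngr1 and Gbp7 stand apart in T138 (12924 and 14173 for Ifngr1), while Ifnar1, Oas1b, Gbp8 and Nlrc5 are lowest in T143.

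In the signal chain, Tyk2, the kinase bound to Ifnar1, had 1916, 2289 and 2389.9 in T143, 3863 and 4560.3 in T138, against 3482, 4385 and 4035 in WT. It was lower in T143 than in T138 (-0.94 ± 0.16, adjusted p = 0.00305) and than in WT (-0.85 ± 0.14, adjusted p = 0.0023). Jak1 and Stat3 were higher in T143 than in T138 (0.49 and 0.48, adjusted p = 0.0395 and 0.0291). Of the inhibitors, Socs1, which blocks the JAK kinases, had 748, 546 and 574 in T143, 1583 and 1327 in T138, against 1389.9, 710.4 and 983 in WT, and was lower in T143 than in T138 (-1.23 ± 0.26, adjusted p = 0.00943). Ptpn6, the phosphatase SHP-1, was higher in T143 than in T138 (1.04 ± 0.17, adjusted p = 0.00235) and than in WT (0.65 ± 0.15, adjusted p = 0.0112).

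Of the list of other IRF genes, which includes the IRF2-binding corepressor Irf2bp2, Irf3 was lower in T143 than in both other groups (adjusted p = 0.0403 against T138 and 0.0366 against WT), Irf4 was lower than in WT (-1.25 ± 0.22, adjusted p = 0.00252), and Irf2bp2 and Irf5 were higher in T138 than in WT (0.88 ± 0.18, adjusted p = 0.0115, and 1.72 ± 0.44, adjusted p = 0.0334). Of 11 genes for sensing nucleic acids, T143 against WT gave 2 higher and 4 lower and T143 against T138 1 higher and 3 lower. T138 against WT gave 1 higher and 0 lower. Called either way were 54.5, 36.4 and 9.09% of the list, beside 23.8, 21.0 and 11.0% of all genes tested. Aim2, the cytosolic DNA sensor, had 645, 848 and 882 in T143, 2757 and 3073 in T138, against 2268, 2638 and 2001 in WT, and all T143 libraries were far below the rest (-1.89 ± 0.18 against T138, adjusted p = 0.000211; -1.54 ± 0.16 against WT, adjusted p = 0.000209). The kinase Ikbke was lower in T143 than in T138 (-0.64 ± 0.17, adjusted p = 0.023) and than in WT (-0.96 ± 0.15, adjusted p = 0.00169), and the adaptor Myd88 was higher (1.07 ± 0.22, adjusted p = 0.00836, and 0.97 ± 0.2, adjusted p = 0.00624). Myd88 had 1946, 1718 and 2776 in T143, 1212 and 831 in T138, against 1059, 1054 and 1104 in WT. Tlr9, a DNA receptor of dendritic and B cells, had 15.9, 211 and 162 in T143, 229 and 128 in T138, against 7.58, 12.8 and 3.04 in WT. It was called higher in both lines than in WT, as 9 of 10 markers of conventional dendritic cells were in each comparison. In both comparisons 0 B cell markers were called higher. The part of either cell type in the Tlr9 values was not tested.

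Of 45 further interferon-stimulated genes tested, 2 were higher and 13 lower in T143 against T138, 5 higher and 12 lower in T143 against WT, and 4 higher and 0 lower in T138 against WT. These are 33.3, 37.8 and 8.89% of the list, beside 21.0, 23.8 and 11.0% of all genes. Nlrc5, the activator of MHC class I genes, had 4916, 5356 and 4163 in T143, 11970.3 and 11174 in T138, against 13743, 15692 and 12592 in WT. T143 was far below both other groups (-1.27 ± 0.16 against T138, adjusted p = 0.000584; -1.54 ± 0.14 against WT, adjusted p = 8.38e-05). Oas1b and Oas1c lie on chromosome 5 with the called OAS members but were lower in T143. Oas1b had 265, 421 and 248 in T143, 598 and 649 in T138, against 641, 1146 and 856 in WT, with -1.5 ± 0.26 against WT (adjusted p = 0.0027). Oas1c had 358, 335 and 246 in T143, 679 and 919.5 in T138, against 518, 452 and 692 in WT, with -1.35 ± 0.26 against T138 (adjusted p = 0.00573). Reads of the tandem Oas1 copies can be hard to assign. Mndal and Ifi204, of the family of DNA-binding PYHIN proteins, were lower in T143 than in T138 (-1.44 ± 0.24, adjusted p = 0.00278, and -1.6 ± 0.27, adjusted p = 0.00265). In the same list Mnda and Pyhin1 were also lower in T143 than in T138, and Ifi203 passed no test. Ifi205 went the other way against WT, higher in T143 (5.37 ± 1.04, adjusted p = 0.00462) and in T138 (6.02 ± 1.17, adjusted p = 0.00858). Genes that were higher against WT included Ifitm3, an inhibitor of viral entry, with 479.6, 1397 and 2661 in T143, 753 and 399 in T138, against 49.6, 19.2 and 39.5 in WT, and Slfn4, with 609, 2034 and 5682 in T143, 609 and 95.7 in T138, against 17.9, 16 and 10.6 in WT. Within each line, the library with the largest neutrophil sum held the highest values of both. Their part in the result was not tested.

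Of 13 further GTPases, 6 were lower in T143 than in T138 (Gbp4, Gbp5, Gbp6, Gbp7, Gbp8 and Gvin1). In T143 against WT 4 were lower (Gbp4, Gbp5, Gbp6 and Gbp8), and neither comparison had a gene called higher. In T138 against WT 1 was higher (Gbp7). These are 46.2, 30.8 and 7.69% of the list. The matching shares of all genes tested were 10.2 and 12.1% called lower and 5.74% called higher. The median log2 change was -0.85 in T143 against T138, -0.54 in T143 against WT and 0.2 in T138 against WT. That of all genes tested was 0.15, 0.05 and -0.06. Gbp8 had 1206, 1359 and 889.9 in T143, 4835 and 4359.6 in T138, against 2772, 3904 and 2755 in WT, which placed T143 lowest in every library (-2.02 ± 0.21 against T138, adjusted p = 0.000276; -1.45 ± 0.19 against WT, adjusted p = 0.00062). Gbp7, a neighbour of Gbp3 on chromosome 3, had 4370.2, 4860.1 and 3355 in T143, 14911 and 11396 in T138, against 5286, 5889 and 4706 in WT. It was higher in T138 than in WT (1.31 ± 0.19, adjusted p = 0.00206) and lower in T143 than in T138 (-1.65 ± 0.19, adjusted p = 0.000427). Gbp genes share sequence, and no source used here says how reads matching several of them were counted.

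Set against the calls, the response element was in the windows of 2 of the 7 members higher in T143 than in WT that have one (Oas3 and Rsad2), of 3 of 3 members lower (Stat2, Slfn8 and Gbp3), and of 11 of 18 members called in no comparison. The gamma-activated sequence was in none of the first 2 groups and in 5 of the 18. The rest of its 7 carriers are Irf1 and Ifit2, which were called in T143 against T138 only and so belong to none of these groups. A match is a description of the window and not a binding site, and its lack says only that these letters are not there.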

How the data were processed

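The unit of the deposited table is a normalised signal. Each value is a whole multiple of 1 step per library (100% of values within 0.01) and the columns share 1 total, so the authors scaled read counts per gene by 1 factor for each library. The submitters' processing notes list the build mm10 and the tools STAR 2.5.2b, HOMER 4.8, CASAVA 1.8.2 and, with no version, edgeR. Libraries were stranded and poly(A)-selected, per the labels' protocols. No source used here tells how strand or reads that match several genes were counted, so overlapping genes, antisense genes and near-copies are uncertain. Groups came from titles.

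Tests ran on log2(value + 1), which understates changes of low genes, with limma 3.58.1 in R 4.3.3 (mean-variance trend, robust, all 8 libraries in 1 fit of group means), for genes with at least 1 in at least 2 libraries; calls are two-sided at a Benjamini-Hochberg adjusted p under 0.05 over 15547 genes. The procedure was tested on simulated counts. True changes of 2-fold were called in 33% of cases for T143 against WT, 28% for T143 against T138 and 23% for T138 against WT. Those of 4-fold were called in 85, 77 and 81%, and 4.1, 7.9 and 8% of calls were false. Only 100 genes were changed at each size, all with a mean of at least 100, which gave 123, 114 and 113 calls. The data gave 3698, 3272 and 1716 calls, so the adjusted threshold meets a larger unadjusted p there. These rates therefore do not carry over to the data. The members, the lists of pathway and marker genes and the tests were chosen with earlier results of these data known. Every member is named, with full statistics for up to 8 called members per comparison with the smallest p, and pathway genes by list, with up to 3 called genes each; members and genes given beyond that were chosen after their values were seen. A gene that the rule names is not reported here. Positions (24403 genes) and promoters come from RefSeq, GRCm38.p6, and transcript lengths (24221 genes) from GENCODE. Floors cover counting error only, whereas each SE comes from the fitted spread between libraries, as the p-values do. Alternatives used edgeR 4.0.16, DESeq2 1.42.0 and voom on recovered reads, another pseudocount, other filters and scalings, the replicate block, and omitted libraries.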

Additional observations from a re-analysis of the deposited data

How the results depend on the processing

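Of the calls reported for single members, 9 held under all 20 alternatives: Oas2, Oas3, Oasl2, Cmpk2, Slfn1 and Gbp3 in T143 against WT, Slfn1 and Gbp3 in T143 against T138, and Gbp3 in T138 against WT. None of the others reversed. Leaving out 1 library at a time gave 7 to 12 called members in T143 against WT, 3 to 10 in T143 against T138 and 1 to 7 in T138 against WT, and 2426 to 3558, 1347 to 3668 and 757 to 1779 called genes. With 1 T138 library left out, the other is assumed to vary like the other groups. Without T143 replicate 1 and WT replicate 1 together, T143 against WT gave 7 members. Without T138 replicate 1 and T143 replicate 3 together, T143 against T138 gave 1676 genes and T138 against WT gave 1 member and 936 genes; these fits hold fewer libraries. T138 against WT gave 6 members with only these 2 groups fitted and 8 with DESeq2, against 3 in the reported fit. All genes called were 1235 and 2269 in those fits, against 1716. The cause was not tested. With the replicate block, members called were 11 in T143 against WT, 9 in T143 against T138 and 5 in T138 against WT, and genes 3940, 3109 and 1804; same-numbered libraries did not deviate together (correlations from -0.06 to 0.05), so they share only a number, and T138 has 2. On recovered reads edgeR called 3263, 2718 and 1278 genes. Depth limits the low members: Ifi44 and Oasl1 rest on few reads, and 2 T138 libraries limit every comparison with that line.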
